A study of Homo sapiens with 6 samples.

Results

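The insulin-like growth factor (IGF) axis was examined in the LX-2 line of human hepatic stellate cells through 10 genes of 60605 rows with an Ensembl identifier. The genes were the ligands IGF1 and IGF2, the receptors IGF1R and INSR, and the IGF-binding proteins IGFBP2 to IGFBP7, each taken as the row of its symbol and Ensembl identifier. LX-2 cells were held for 24 h in medium in which the human colorectal carcinoma line HCT116 had grown. In the control group (Vector-CM, n = 3) the HCT116 cells carried an empty vector, and in the other (FGFBP1-CM, n = 3) they overexpressed FGFBP1, a secreted protein that binds and releases fibroblast growth factors. Both HCT116 lines were made with lentivirus and kept by puromycin selection. All 6 libraries came from cells given tumor cell medium and none from LX-2 cells without it. Total counts per library lay between 14003780 and 18508113. The sources used here do not say that the 3 libraries of a group came from separate cultures, so p-values measure the spread between these libraries, which may be technical.

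IGF1 and IGF2 are secreted growth factors that signal through the receptor tyrosine kinase IGF1R and, for IGF2 and insulin, through INSR. Most IGF outside cells is held by binding proteins, which prolong its life, keep it from receptors or deliver it after a protease cuts them. In the liver, hepatocytes are the main source of circulating IGF1, while the non-parenchymal cells, stellate cells among them, make several of the binding proteins.

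The upstream sequences of 4 members are shown, because these members had lower levels in FGFBP1-CM and a single start site in RefSeq (GRCh38.p14) with a window outside the gene's own GENCODE 29 exons, save 2 bases of IGFBP3. Each run gives the 250 bases before the start, read 5′ to 3′ on the strand of the gene. It lies at chr15:98648289-98648538 (plus strand) for IGF1R, chr7:45921273-45921522 (minus) for IGFBP3, chr17:40443200-40443449 (plus) for IGFBP4 and chr2:216695550-216695799 (minus) for IGFBP5. The IGFBP3 window is upstream of the RefSeq start but inside the GENCODE 29 gene, whose 5′ end is at 45921874. Capitals mark the motifs found on either strand, a GC box (GGGCGG) or a TATA box (TATAAA).
IGF1R: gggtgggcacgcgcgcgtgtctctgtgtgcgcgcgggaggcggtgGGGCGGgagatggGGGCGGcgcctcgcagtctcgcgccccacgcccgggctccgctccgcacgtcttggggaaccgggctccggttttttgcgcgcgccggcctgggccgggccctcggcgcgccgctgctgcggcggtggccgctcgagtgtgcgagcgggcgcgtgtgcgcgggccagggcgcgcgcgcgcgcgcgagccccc
IGFBP3: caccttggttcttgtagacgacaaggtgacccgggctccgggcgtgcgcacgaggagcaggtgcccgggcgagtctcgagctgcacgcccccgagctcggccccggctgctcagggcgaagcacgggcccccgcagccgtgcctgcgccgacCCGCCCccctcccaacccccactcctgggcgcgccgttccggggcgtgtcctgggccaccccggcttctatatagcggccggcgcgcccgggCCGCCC
IGFBP4: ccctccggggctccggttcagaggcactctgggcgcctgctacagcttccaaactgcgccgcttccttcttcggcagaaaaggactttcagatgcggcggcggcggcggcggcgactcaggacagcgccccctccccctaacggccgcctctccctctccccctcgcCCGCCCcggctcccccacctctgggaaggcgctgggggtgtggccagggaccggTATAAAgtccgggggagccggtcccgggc
IGFBP5: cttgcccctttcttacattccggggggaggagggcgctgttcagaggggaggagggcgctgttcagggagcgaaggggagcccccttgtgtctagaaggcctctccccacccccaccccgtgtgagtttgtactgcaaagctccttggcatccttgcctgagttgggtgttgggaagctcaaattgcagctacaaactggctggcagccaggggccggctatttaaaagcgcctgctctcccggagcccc
The windows of IGF1R and IGFBP3 held 2 GC boxes each and that of IGFBP4 held 1, while 42.6% of 35116 RefSeq promoters of the same length held at least 1. A TATA box stood 29 bases before the start of IGFBP4, and 10.7% of all promoters held one. The FOXO motif GTAAACA (2.98% of promoters), the AP-1 motif TGACTCA (4.20%) and the EGR1 motifs GCGGGGGCG (4.72%) and GCGTGGGCG (0.720%) had no match in these 4 windows. Among the windows not shown, that of IGFBP6 and 1 of the 2 of IGF1 held a FOXO motif, and that of INSR held 4 GC boxes. A GC box can overlap the end of the first EGR1 motif. The GC content of the windows was 81.2% for IGF1R, 76.0% for IGFBP3, 71.6% for IGFBP4 and 61.2% for IGFBP5, against a median of 58.0% over all promoters.

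The binding proteins of LX-2 cells were mainly IGFBP4, IGFBP6 and IGFBP7. Levels of different genes were compared as FPKM, the deposited value of a count scaled by gene length and library total. IGFBP4, which holds IGFs until the protease PAPPA cleaves it, had the highest level of the members, at 81.5 ± 14.3 FPKM (SD, n = 6). IGFBP6, which prefers IGF2, followed at 61.6 ± 7.30 FPKM, and IGFBP7, a low-affinity binder found in the matrix and in activated stellate cells, at 22.6 ± 2.69 FPKM. These 3 levels stood at the 97.8, 96.9 and 88.3 percentile of the tested genes. The ranges of IGFBP4 and IGFBP6 over the 6 libraries overlapped, but in every library IGFBP4 was the higher.

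Receptor levels came next in the order. IGF1R was at 9.58 ± 0.986 FPKM and INSR at 4.37 ± 0.230 FPKM (SD, n = 6), and their ranges did not overlap. Below them stood IGFBP3, the main IGF carrier of blood plasma, at 3.14 ± 0.911 FPKM, and IGFBP5, which also binds the extracellular matrix, at 1.66 ± 0.507 FPKM. The range of IGFBP3 overlapped those of INSR and IGFBP5. IGFBP2 was near the bottom of the tested genes, at 0.255 ± 0.0858 FPKM. Dividing the TMM-scaled counts by gene length in place of the deposited FPKM gave each member the same rank.

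**Figure D1:**
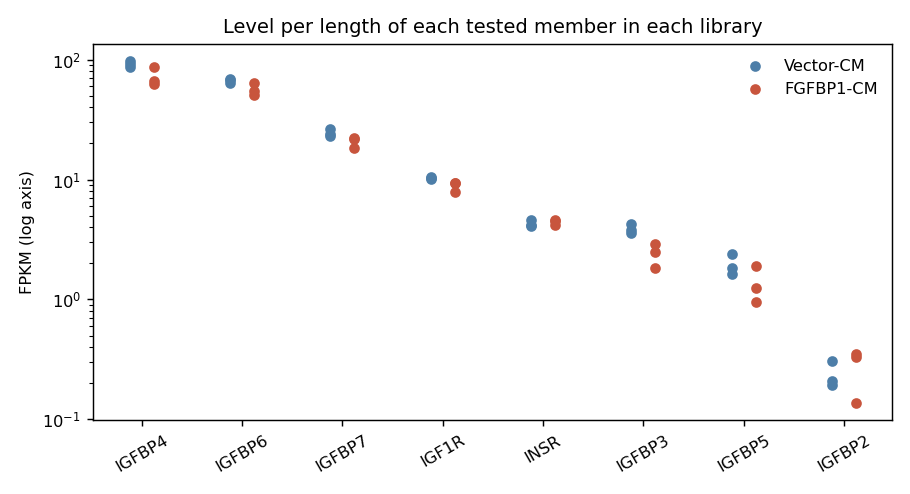
FPKM on a log axis of the 8 tested members, with 1 point per library (Vector-CM in blue, FGFBP1-CM in red, n = 3 each). The order runs from IGFBP4, at 62.1 to 97.2 FPKM over the 6 libraries, to IGFBP2, at 0.137 to 0.350 FPKM.

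Neither ligand was measured above the limit that a count of 0 allows, which is 3 counts or 0.158 to 0.217 CPM (a count scaled to the library total after TMM), for counting error only. IGF1 had 0 counts in all 6 libraries. IGF2 had 0 counts in each Vector-CM library and 1, 2 and 1 counts in FGFBP1-CM replicates 1 to 3. The IGF2 counts therefore did not overlap between groups, but all stood under that limit, and no fold change is given. In GENCODE 29 (GRCh38), 6693 of the 8122 exon bases of IGF1 (ENSG00000017427; chromosome 12, 102395874 to 102481744, minus strand) are also exon bases of HELLPAR on the other strand, which had 47 to 88 counts per library. For IGF2 (ENSG00000167244; chromosome 11, 2129112 to 2149603, minus strand), 5144 of 6979 exon bases belong as well to a second entry of the same symbol on the same strand, ENSG00000284779, which had 0 counts over the 6 libraries. Reads in shared exons may have been assigned to the other gene or to neither, which leaves 1429 bases of IGF1 and 1744 of IGF2 that are shared with no annotated gene. The ligand values are thus levels listed at or near 0 by this counting, and absence of the transcripts cannot be read from them.

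The comparison asked how medium from FGFBP1-overexpressing HCT116 cells, set against medium from vector cells, was followed by different levels of IGF axis genes in LX-2 cells. IGFBP3, IGFBP4, IGFBP5, IGFBP6, IGFBP7 and IGF1R had lower mean levels in FGFBP1-CM, by 16.3% (IGF1R) to 39.8% (IGFBP3), each at an unadjusted p under 0.05. INSR and IGFBP2 had similar or slightly higher means, with unadjusted p of 0.964 and 0.724. None of the 8 tested members passed the adjusted threshold of 0.05 in the edgeR quasi-likelihood test with Benjamini-Hochberg adjustment over 16707 genes, which 0.120% of all tested genes passed (0.0539% higher and 0.0658% lower). The 2 ligands were below the filter on low counts.

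In all, 6 of the 8 tested members were at an unadjusted p under 0.05, each lower in FGFBP1-CM, against 21.7% of all tested genes in either direction and 10.7% lower. The CPM of the groups did not overlap for 4 of the 8 (IGF1R, IGFBP3, IGFBP6 and IGFBP7), each lower, against 26.0% of all tested genes in either direction and 13.2% lower. The median log2 fold change was -0.28 over the 8 tested members and -0.33 over the 6 binding proteins, against 0.0032 over all tested genes. The members were chosen with earlier results of these data known, so the counts and medians describe them and carry no test of their own. Among all genes, 20 passed the adjusted threshold (9 higher and 11 lower, or 24 and 14 with RLE scaling). FAP, which encodes fibroblast activation protein, had the largest change, from 1.75 ± 0.470 to 39.6 ± 10.5 CPM (SD, n = 3 each).

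**Figure D2:**
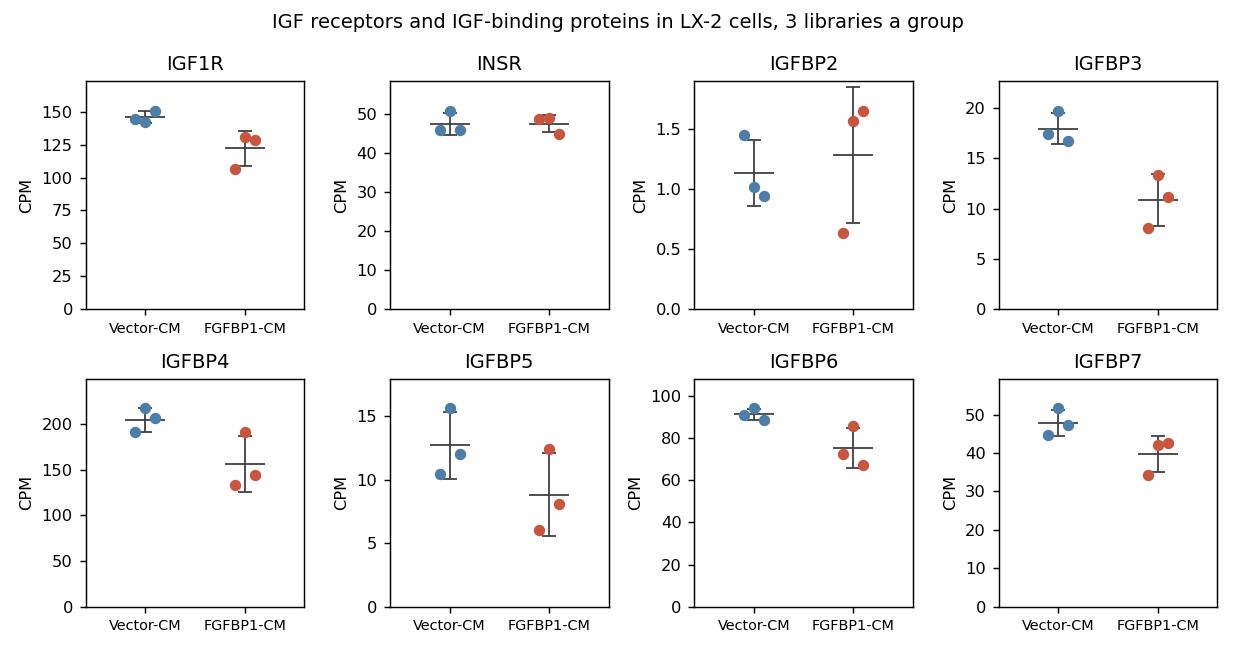
CPM of the 8 tested members in each library (points, n = 3 a group), with the mean (bar) and SD (whiskers), each axis starting at 0. IGF1R, IGFBP3, IGFBP6 and IGFBP7 show no overlap between groups. FGFBP1-CM replicate 2 reaches the lowest Vector-CM library for IGFBP4 and stands above Vector-CM replicates 1 and 3 for IGFBP5.

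IGFBP3 (ENSG00000146674; chromosome 7, 45912245 to 45921874, minus strand, 7 exon blocks) had the lowest p of the members. It was at 17.5, 19.7 and 16.7 CPM in Vector-CM replicates 1 to 3 and at 8.12, 13.3 and 11.2 CPM in FGFBP1-CM replicates 1 to 3. Every FGFBP1-CM library was below every Vector-CM library, with replicate 1 the lowest. The log2 fold change was -0.73 (SE 0.151, 95% confidence interval -1.06 to -0.41, unadjusted p = 0.000294, adjusted p = 0.0568, edgeR), which ranked 78 of all tested genes by p. The difference stayed on the same side of 0 in each of the 16 alternative settings. Its adjusted p was under 0.05 in 8 of them, including the fits without FGFBP1-CM replicate 1 (0.0424), 2 (0.0120) or 3 (0.0366), and it was 0.150, 0.176 and 0.243 without Vector-CM replicate 1, 2 or 3. IGFBP1, which lies 18.576 kb from IGFBP3 and is known as an insulin-regulated product of hepatocytes, was below the filter, with 0 to 2 counts in each library.

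IGFBP4 (ENSG00000141753; chromosome 17, 40443461 to 40457731, plus strand, 4 exon blocks) was at 191, 217 and 206 CPM in Vector-CM and at 134, 191 and 144 CPM in FGFBP1-CM. Replicate 2 of FGFBP1-CM was level with the lowest Vector-CM library, and the other 2 were clearly lower. Its log2 fold change was -0.39 (SE 0.109, unadjusted p = 0.00317, adjusted p = 0.0868, edgeR). It was -0.56 without FGFBP1-CM replicate 2, at an adjusted p of 0.00721, and -0.29 without FGFBP1-CM replicate 1, at an adjusted p of 0.162 (edgeR). The adjusted p over all alternatives ran from 5.16e-05, with no filter beyond 1 count, to 0.263. The prior degrees of freedom, the weight given to the spread shared over genes, were infinite with no filter, against 9.32 in the main test. A gene's own spread between libraries thus did not enter its p-value in the fit with no filter.

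IGFBP6 (ENSG00000167779; chromosome 12, 53097436 to 53102345, plus strand, 6 exon blocks) was at 91.2, 94.0 and 88.7 CPM in Vector-CM and at 72.5, 85.7 and 67.4 CPM in FGFBP1-CM. The groups did not overlap, and replicate 2 of FGFBP1-CM again stood nearest to Vector-CM. For IGFBP6 the log2 fold change was -0.28 (SE 0.0835, unadjusted p = 0.00506, adjusted p = 0.0968, edgeR). It was -0.38 without FGFBP1-CM replicate 2, at an adjusted p of 0.0183, and -0.21 without FGFBP1-CM replicate 3, at 0.168 (edgeR). The adjusted p ran from 0.0183 to 0.263 over the alternatives.

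IGFBP7 (ENSG00000163453; chromosome 4, 57030773 to 57110385, minus strand, 6 exon blocks) was at 44.8, 51.6 and 47.2 CPM in Vector-CM and at 34.3, 42.1 and 42.6 CPM in FGFBP1-CM. The FGFBP1-CM libraries were all lower, replicate 1 by the most. This gave a log2 fold change of -0.27 (SE 0.0919, unadjusted p = 0.0112, adjusted p = 0.126, edgeR), and -0.17 without FGFBP1-CM replicate 1. Its unadjusted p was 0.0563 without Vector-CM replicate 2. IGFBP7 shares 364 of its 1930 exon bases with genes on the other strand, POLR2B and IGFBP7-AS1.

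IGFBP5 (ENSG00000115461; chromosome 2, 216672105 to 216695525, minus strand, 4 exon blocks) was at 10.5, 15.6 and 12.1 CPM in Vector-CM and at 6.01, 12.4 and 8.07 CPM in FGFBP1-CM. The groups overlapped, since FGFBP1-CM replicate 2 was above 2 of the 3 Vector-CM libraries. On the log2 scale the difference was -0.53 (SE 0.217, unadjusted p = 0.0296, adjusted p = 0.183, edgeR), on 114 to 216 counts per library. This estimate depended on single libraries, with -0.30 (unadjusted p = 0.101) without FGFBP1-CM replicate 1 and -0.85 (adjusted p = 0.0277) without FGFBP1-CM replicate 2. The unadjusted p was also above 0.05 without Vector-CM replicate 2 (0.142), where the log2 fold change was -0.36, and without FGFBP1-CM replicate 3 (0.0584). With all libraries kept, it was 0.130 in DESeq2 and 0.0796 and 0.0761 in limma on log2(FPKM + 1) and log2(FPKM + 0.1), so IGFBP5 was under 0.05 in 10 of the 16 alternatives.

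IGFBP2 (ENSG00000115457; chromosome 2, 216632828 to 216664436, plus strand, 4 exon blocks) lies 7.668 kb from IGFBP5, in the opposite orientation. IGFBP2 binds IGFs, with a preference for IGF2, and can bind integrins. It was at 1.45, 1.01 and 0.943 CPM in Vector-CM and at 0.633, 1.57 and 1.65 CPM in FGFBP1-CM, with 12 to 27 counts per library. FGFBP1-CM replicate 1 was the lowest library and the other 2 were the highest. Its log2 fold change was 0.13 with a 95% confidence interval of -0.64 to 0.89 (adjusted p = 0.871, edgeR), so a difference of the size seen for IGFBP4 was not detectable at this depth.

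**Figure D3:**
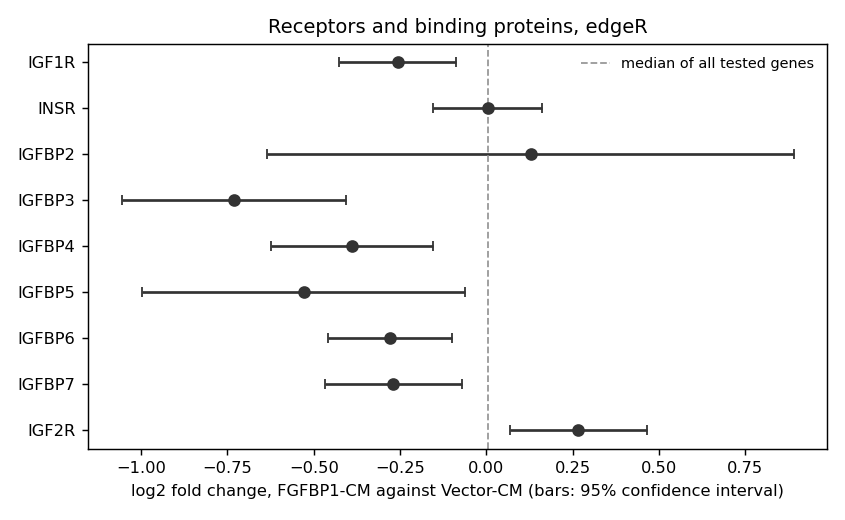
Log2 fold change of FGFBP1-CM against Vector-CM (edgeR, n = 3 a group) for the 8 tested members and IGF2R, with 95% confidence intervals and the median of all tested genes as a dashed line. The intervals of IGF1R and IGFBP3 to IGFBP7 lie below 0, those of INSR and IGFBP2 include 0, and that of IGF2R lies above 0.

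IGF1R (ENSG00000140443; chromosome 15, 98648539 to 98964530, plus strand, 30 exon blocks), the signaling receptor for both IGFs, was at 144, 142 and 151 CPM in Vector-CM and at 107, 131 and 129 CPM in FGFBP1-CM. All 3 FGFBP1-CM libraries were lower, replicate 1 by the most. For IGF1R the log2 fold change was -0.26 (SE 0.0785, unadjusted p = 0.00594, adjusted p = 0.102, edgeR), and -0.17 without FGFBP1-CM replicate 1. Its unadjusted p was under 0.05 in each of the 16 alternatives, and its adjusted p in 1, with no filter beyond 1 count. As said for IGFBP4, a gene's own spread did not enter its p-value in that fit.

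INSR (ENSG00000171105; chromosome 19, 7112255 to 7294034, minus strand, 23 exon blocks), the insulin receptor, can form hybrid receptors with IGF1R. It was at 45.7, 50.7 and 45.8 CPM in Vector-CM and at 48.6, 48.8 and 44.9 CPM in FGFBP1-CM. The groups overlapped in part, with the highest library in Vector-CM and the lowest in FGFBP1-CM. INSR had a log2 fold change of 0.0034 with a 95% confidence interval of -0.16 to 0.16 (adjusted p = 0.986, edgeR). The ratio of IGF1R to INSR in FPKM was 2.40 ± 0.196 in Vector-CM and 2.01 ± 0.269 in FGFBP1-CM (SD, n = 3 each). In single libraries this ratio was 2.46, 2.18 and 2.56 against 1.71, 2.09 and 2.23, so the groups overlapped. The smallest p that an exact permutation test of 3 against 3 can give is 0.1, so none was run.

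IGF2R, which is outside the members, binds IGF2 and carries it to lysosomes without signaling as IGF1R does. It was at 284, 273 and 264 CPM in Vector-CM and at 388, 301 and 297 CPM in FGFBP1-CM. The groups did not overlap and the direction was opposite to that of IGF1R. IGF2R had a log2 fold change of 0.27 (SE 0.0921, unadjusted p = 0.0125, adjusted p = 0.130, edgeR), and 0.13 without FGFBP1-CM replicate 1. Its unadjusted p was 0.0540 in that fit and 0.0516 without Vector-CM replicate 3. The ratio of IGF2R to IGF1R in FPKM was 1.21, 1.18 and 1.08 in Vector-CM and 2.24, 1.42 and 1.42 in FGFBP1-CM.

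The summed level of the 6 binding proteins was 182, 199 and 185 FPKM in Vector-CM and 138, 177 and 142 FPKM in FGFBP1-CM. All FGFBP1-CM sums were below the Vector-CM sums. IGFBP4 made up 48.5 ± 1.08% of the sum in Vector-CM and 46.6 ± 2.06% in FGFBP1-CM, and IGFBP6 made up 35.4 ± 1.32% and 37.1 ± 2.46% (SD, n = 3 each). The share of IGFBP7 was 12.9 ± 0.289% and 13.7 ± 1.70%. The shares of these 3 differed between groups by less than the SD in FGFBP1-CM. IGFBP3 took 2.09%, 2.14% and 1.93% of the sum in Vector-CM and 1.32%, 1.64% and 1.73% in FGFBP1-CM, with no overlap. As a share of summed CPM, which is not divided by length, IGFBP3 took 4.78 ± 0.251% and 3.70 ± 0.462%.

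The size of the difference varied among the FGFBP1-CM libraries. Over IGFBP3 to IGFBP7, the median log2 difference from the Vector-CM mean was -0.61 in replicate 1, -0.10 in replicate 2 and -0.51 in replicate 3, against -0.09 to 0.11 in the Vector-CM libraries. The same ordering was seen over 9882 genes with a mean of at least 10 CPM, where the median absolute log2 difference from the Vector-CM mean was 0.172, 0.0855 and 0.106 in FGFBP1-CM replicates 1 to 3 and 0.0403 to 0.0551 in Vector-CM. Each Vector-CM library is part of the mean it is set against, which makes its difference smaller by construction. Among the FGFBP1-CM libraries, replicate 1 had the largest difference and replicate 2 the smallest. What sets these libraries apart was not tested. Across the 6 libraries, the log2 CPM of IGFBP3 to IGFBP7 had pairwise Pearson r of 0.70 (IGFBP6 with IGFBP7) to 0.96 (IGFBP4 with IGFBP5), and INSR had r of -0.24 with IGF1R. These 6 points share their group and library differences, so the correlations only describe the pattern.

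**Figure D4:**
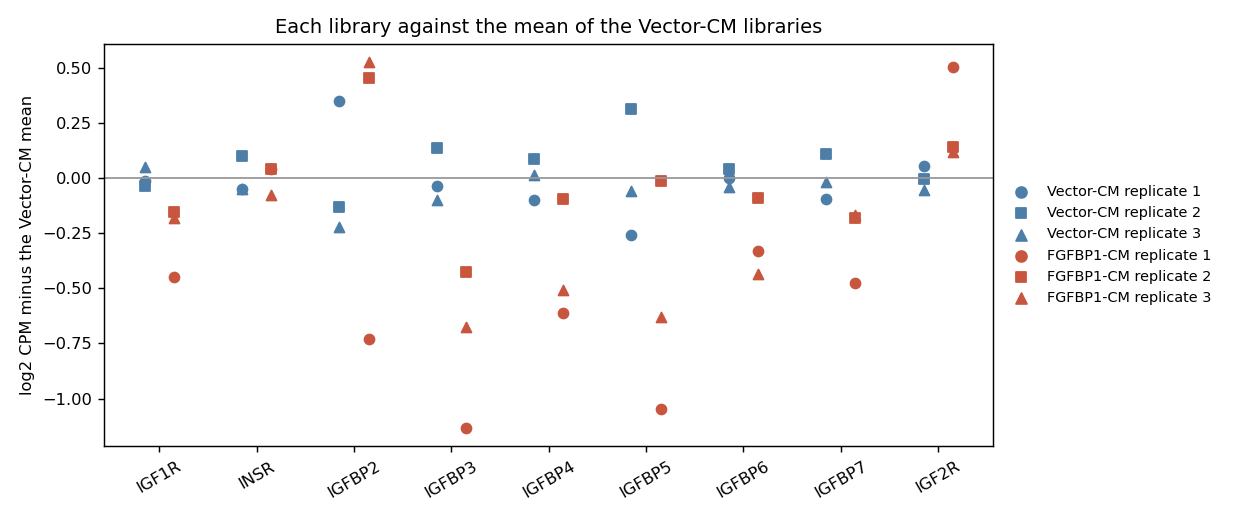
Log2 CPM of each library minus the mean of the Vector-CM libraries, for the 8 tested members and IGF2R (color for group, marker for replicate). For IGFBP3, FGFBP1-CM replicates 1 to 3 sit at -1.13, -0.43 and -0.68, and for IGF2R at 0.50, 0.14 and 0.12.

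Genes whose levels followed IGFBP3 most closely were sought among 9756 tested genes with a symbol and a mean of at least 10 CPM. The 5 with the highest Pearson r of log2 CPM over the 6 libraries were NPC1 (0.998), DUT (0.997), NT5DC3 (0.996), UQCRC1 (0.996) and UBA7 (0.995). These are the highest of 9756 values on 6 points that include the group difference, so they describe a shared pattern only. Their log2 fold changes were smaller than that of IGFBP3, from -0.16 for NPC1 to -0.32 for UBA7, with adjusted p of 0.170 for NPC1 and 0.0780 for UBA7 (edgeR).

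Markers of the cell type and of other cells were read beside these values. Of 14 stellate markers, 10 were tested. VIM, COL1A1 and SPARC were abundant, while LRAT was at 0 counts in every library and DES at no more than 4. Their summed level was 3571 to 3842 CPM in Vector-CM and 2772 to 3307 CPM in FGFBP1-CM, and 5 were lower at an unadjusted p under 0.05, of which TIMP1 passed the adjusted threshold (log2 fold change -0.38, adjusted p = 0.0465, edgeR). The summed level of 20 hepatocyte markers was 46.6 to 49.7 CPM in Vector-CM and 21.2 to 31.6 CPM in FGFBP1-CM. All 8 tested hepatocyte markers were lower at an unadjusted p under 0.05. ALB, APOB, AFP and FGA fell past the adjusted threshold on at most 65 counts per library. None of the 20 was at 0 in every library. For comparison with both marker lists, 10.7% of all tested genes were lower at an unadjusted p under 0.05. The share lower past the adjusted threshold was 0.0658%. Summed colorectal epithelium markers were 223 to 249 CPM against 213 to 234 CPM, nearly all from KRT8 and KRT18, with CEACAM5, CEACAM6 and TFF3 at 0 in every library. Summed endothelial markers were 14.1 to 16.2 CPM against 12.7 to 15.6 CPM, with EMCN at 0, and leukocyte markers 4.34 to 5.36 CPM against 4.34 to 7.03 CPM, with CD163 at 0. The part of these markers in the member differences was not tested, and in bulk RNA fewer cells of a kind and less RNA per cell cannot be told apart.

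The wider pathway was read from a list of 101 genes, of which 91 were not members and 73 of those were tested. None passed the adjusted threshold, which 0.120% of all tested genes did. At an unadjusted p under 0.05, 11 were higher and 14 lower in FGFBP1-CM, against 11.1% and 10.7% of all tested genes in each direction. The median log2 fold change of the 73 was -0.05.

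On the ligand side, none of the 5 further genes was tested. IGFALS, the acid-labile subunit that joins IGF and IGFBP3 in plasma, had 1 to 8 counts per library, the imprinted RNA H19 had 0 to 3, and INS-IGF2 had 0 in all libraries. Of 3 further receptors tested besides the members, IGF2R was higher and 2 were lower at an unadjusted p under 0.05. At that p, 11.1% of all tested genes were higher and 10.7% lower. The 2 lower receptors were LRP1 and TMEM219. LRP1, an endocytic receptor that takes up many ligands, had a log2 fold change of -0.25 (unadjusted p = 0.0128, adjusted p = 0.132, edgeR). TMEM219, described as a receptor for IGFBP3, had -0.19 (unadjusted p = 0.0186, adjusted p = 0.151, edgeR).

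Of the proteases of binding proteins and their inhibitors, 13 were tested. Over all tested genes, 11.1% were higher and 10.7% lower at an unadjusted p under 0.05. Among these 13 genes, 1 was higher and 4 were lower at that p. The lower ones included MMP2, a gelatinase, at -0.35 (unadjusted p = 0.00257), PLAT, tissue plasminogen activator, at -0.32 (unadjusted p = 0.00514), and ADAM12, which can cleave IGFBP3 and IGFBP5, at -0.26 (unadjusted p = 0.00411), as log2 fold changes with adjusted p of 0.0830 to 0.0969 (edgeR). MMP2 was the lowest of these in p. PAPPA, the protease that cuts IGFBP4, had a log2 fold change of 0.23 (unadjusted p = 0.123, adjusted p = 0.358, edgeR), and its inhibitors STC1 and STC2 had -0.04 (adjusted p = 0.838) and 0.04 (adjusted p = 0.813). HTRA1, a secreted serine protease, had -0.05 (adjusted p = 0.850).

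Downstream of the receptors, 2 of 15 tested adaptor and docking genes were higher and 3 lower at an unadjusted p under 0.05. Over all tested genes, 11.1% were higher and 10.7% lower at that p. NEDD4, a ubiquitin ligase, had a log2 fold change of 0.31 (unadjusted p = 0.00359, adjusted p = 0.0898, edgeR). SHC1, GRB10 and IRS2, which dock at or restrain the activated receptors, had log2 fold changes of -0.23, -0.29 and -0.19 (unadjusted p = 0.00646, 0.0184 and 0.0200, edgeR). IRS1, the other main docking protein, had -0.02 with a 95% confidence interval of -0.16 to 0.12.

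In the kinase cascade from PI3K through AKT to mTOR, 21 genes were tested. At an unadjusted p under 0.05, 11.1% of all tested genes were higher and 10.7% lower. Among these 21 genes, 5 were higher and 2 lower at that p. The higher ones included TSC1 at 0.27, the mTOR partner RPTOR at 0.33, GSK3B at 0.21 and the S6 kinase gene RPS6KB1 at 0.18 (log2 fold changes, adjusted p of 0.0919 to 0.146, edgeR). AKT1 and AKT2 had log2 fold changes of -0.19 and -0.17 (adjusted p = 0.124 and 0.147, edgeR). Both directions were thus present in this group.

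Of 14 tested genes known as FOXO targets, which AKT activity holds down, 1 was higher and 3 lower at an unadjusted p under 0.05. The shares over all tested genes were 11.1% higher and 10.7% lower. CCNG2, an atypical cyclin, had the lowest p of the wider list, with a log2 fold change of -0.35 (unadjusted p = 0.000396, adjusted p = 0.0568, edgeR). TXNIP, a regulator of glucose uptake, had -0.51 (unadjusted p = 0.0125, adjusted p = 0.130), and PIK3IP1, an inhibitor of PI3K, had -0.36 (unadjusted p = 0.0117, adjusted p = 0.127). Neither of the 2 tested IGF2 mRNA-binding protein genes was at an unadjusted p under 0.05.

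**Figure D5:**
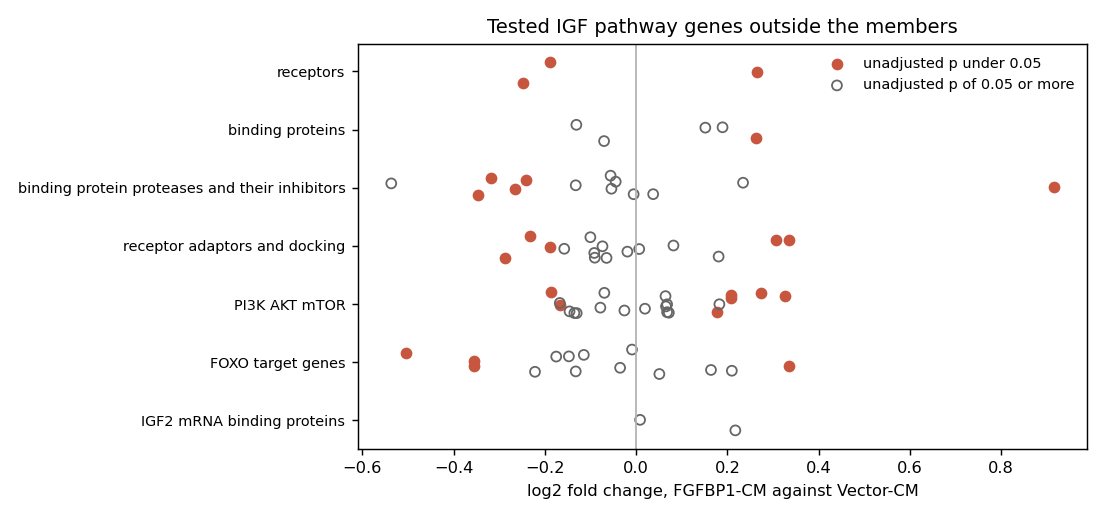
Log2 fold change of FGFBP1-CM against Vector-CM for the 73 tested pathway genes outside the members, by role (1 point per gene, filled where the unadjusted edgeR p is under 0.05, spread vertically for legibility). Filled points lie on both sides of 0, and the highest point, PAPPA2 at 0.92, rests on 7 to 36 counts per library and is named because of its place in the plot.

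Base composition moved with the fold changes. Over 16401 tested genes the log2 fold change had a Spearman rho of -0.22 with GC content, as a description across genes, which are not independent replicates. All 8 tested members were above the median GC content of 48.5%. IGFBP6 was at 63.0%, IGFBP4 at 62.5%, IGFBP2 at 59.9%, IGFBP5 at 54.0%, IGFBP3 at 52.7%, INSR at 51.9%, IGF1R at 51.7% and IGFBP7 at 50.3%. With the GC and length trend of each library removed, rho was -0.01. Fold changes on the log2 scale were then -0.74 for IGFBP3 (adjusted p = 0.0489, edgeR), -0.35 for IGFBP4, -0.52 for IGFBP5, -0.22 for IGFBP6, -0.28 for IGFBP7, -0.25 for IGF1R, 0.0090 for INSR and 0.18 for IGFBP2 (unadjusted p = 0.602, edgeR). The same 6 members were at an unadjusted p under 0.05, each lower in FGFBP1-CM.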

How the data were processed

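RNA was sequenced from LX-2 cells in 2 groups of 3 libraries, assigned from the sample labels. According to the labels and the study's methods, the authors aligned reads with HISAT2 2.0.5, counted them with featureCounts 1.5.0-p3 and deposited a raw count per gene and library. The authors deposited FPKM beside the counts. The submitters' processing notes name build hg18, while 96.3% of the Ensembl identifiers have an entry in GENCODE 29 (GRCh38), whose coordinates are used here and need not be those used for counting. Strand setting, annotation release and treatment of multi-mapped reads are not given in the sources used here, so reads of overlapping genes may be split or lost. The 175 rows with identifiers of the authors' own were kept in the fit.

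The main test was run on the counts in R 4.3.3 with edgeR 4.0.16 (filterByExpr, TMM, quasi-likelihood F-test, group as the only term), with Benjamini-Hochberg adjustment over 16707 genes and a threshold of 0.05. Standard errors are the log2 fold change divided by the square root of F. The alternatives tried were DESeq2 1.42.0, limma 3.58.1 on log2(FPKM + 0.1) and log2(FPKM + 1), scaling by RLE or by library size alone, a filter at a mean of 1 CPM or at 1 count in all, replicate number as a blocking term, removal of the GC and length trend by loess (span 0.3), both together, and leaving out each library. The steps were run on simulated counts in which 200 genes changed 2-fold, without a GC trend. That change is larger than those of the members, so the simulation does not cover differences of their size. The members and lists were chosen with earlier results of these data known. Named from the pathway list were up to 20 genes in order of p and 11 fixed ones. A gene of the pathway list and a marker gene are not reported here. Exon overlaps were checked for the members, IGF2R and IGFBP1. RefSeq promoter entries were found for 8 of the 10 members. No pair of libraries agreed within sampling noise.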

Additional observations from a re-analysis of the deposited data

How the results depend on the processing

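The direction of IGF1R and of IGFBP3 to IGFBP7 was the same in all 16 alternatives. The number of members at an unadjusted p under 0.05 stayed between 4 and 6. The share of all tested genes at that p ran from 12.9% (no filter beyond 1 count) to 24.2% (without FGFBP1-CM replicate 2). The number of members past the adjusted threshold was 0 in the main test and with both other scalings, a mean of at least 1 CPM and both limma fits. It was 5 with no filter beyond 1 count, where a gene's own spread between libraries did not enter its p-value. The number was 2 with DESeq2 and 1 with the GC and length trend removed. It was 0 to 4 when single libraries were left out, with 4 without FGFBP1-CM replicate 2. With the replicate block, 1 member (IGFBP3, adjusted p = 0.0474, edgeR) and 90 genes passed, and with the block and the trend removal together 2 members and 370 genes. Pairing by replicate number was not borne out over 16707 genes, where the deviations of same-numbered libraries had correlations of -0.09, -0.03 and 0.11. Among the members, IGFBP4, IGFBP5 and IGFBP6 had the same order of replicates in both groups, and the other tested members did not. With the block, the SE was 0.0757 for IGFBP4 and 0.129 for IGFBP5 (unadjusted p = 0.00169, adjusted p = 0.0701, edgeR), against 0.109 and 0.217 in the main test. For IGFBP2 it was 0.388 against 0.354.

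Over all genes, 20 passed in the main test, 38 with RLE scaling, 17 with library size only, 1382 with no filter, 11 with a mean of at least 1 CPM, 585 with DESeq2, 1 with each limma fit, 88 with the trend removed, and 4 to 883 when single libraries were left out (6, 4 and 4 without Vector-CM replicate 1, 2 or 3, and 72, 883 and 402 without FGFBP1-CM replicate 1, 2 or 3). An unadjusted p under 0.05 gave 3630, which were 1850 higher and 1780 lower, or 2359 and 1286 with library size only. Leaving out single libraries turned the log2 fold change of INSR below 0 in 4 of 6 fits (range -0.0217 to 0.0535) and that of IGFBP2 in 2 of 6 (range -0.11 to 0.48). The cause of these moves was not tested. Low counts limit IGFBP2, and IGF1 and IGF2 cannot be compared.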
